A study of Drosophila melanogaster with 6 samples.

Results

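The genes described here encode the secreted and membrane-bound metalloproteases AdamTS-A, AdamTS-B, stl, Mmp1, Mmp2 and kuz and the metalloprotease inhibitor Timp of Drosophila melanogaster, 7 genes in all. Probe sets were taken where the platform annotation named 1 gene and that gene was one of the 7. This gave 7 probe sets of 6 genes, out of 12443 single-gene probe sets of 10844 genes. Mmp1 had no probe set named for it alone and has no value here. AdamTS-B, which is CG4096, was chosen by its difference in signal between the genotypes on these same arrays, so its values are given as a description with no test. The other genes were listed by protein family, with earlier results of these data known.

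RNA was measured in eye-antennal imaginal discs, the paired larval epithelia that form the adult eye, antenna and head capsule. The discs came from wandering 3rd instar larvae raised at 25 °C, and each sample pooled 100 discs. In 3 samples GMR-Gal4 drove UAS-RasV12, an activated Ras that acts inside the cell making it (genotype GMR Gal4/UAS RasV12). In the other 3 samples GMR-Gal4 drove UAS-sSpi, a secreted form of the EGF receptor ligand Spitz (genotype GMR Gal4/+; UAS sSpi/+). The driver is active in eye disc cells posterior to the morphogenetic furrow, the front at which photoreceptors begin to form, so antennal and anterior eye cells contribute RNA without the transgene. All 6 samples carried GMR-Gal4, and no sample without a transgene was analysed here. Each title gives a biological replicate number. One label field of the sSpi arrays names RasV12 instead, against the genotype, source and title, and the titles were followed.

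ADAMTS proteins are secreted proteases with thrombospondin-type repeats that bind and cleave extracellular matrix. Matrix metalloproteases degrade basement membrane in tissue remodelling, wound repair and invasion. In the fly both of them, Mmp1 and Mmp2, are held in check by the single inhibitor Timp. Kuz is an ADAM protease anchored in the membrane that sheds the ectodomains of cell-surface proteins, above all Notch, and is needed for Notch signalling in the eye. Stl is an ADAMTS protein known from ovarian follicle formation, and AdamTS-A is known in fly embryos for the detachment of migrating salivary gland cells and for the shape of the nervous system.

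Values are the authors' MAS5 signals, a linear intensity per probe set. Differences are RasV12 minus sSpi in log2(signal + 16), a scale that understates the change of dim genes. They were tested in limma across the 8380 probe sets whose mean signal over the 6 arrays was above 23.4, the upper 60%, and passed at an adjusted p of 0.05. Of the 7 probe sets, 6 lay above this limit and that of stl below it. AdamTS-B was in the fit, but no p-value is given for it, as it was chosen for its difference. Median signals of the 6 arrays lay between 39.4 and 41.4. RasV12 replicate 1 stood apart on the second principal component, which held 24.9% of the variance, at 20.3 against -13.4 to 3.93 for the other arrays. The signal of spi was 1314 ± 83.6 in sSpi and 1018 ± 25.8 in RasV12 (SD, n = 3), and whether its probe set lies within the transgene was not analysed here. Ras85D had no probe set named for it alone. In discs, fewer cells of a type and less RNA per cell cannot be told apart.

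AdamTS-B had the widest gap of these genes. Its signal was 91.3, 109 and 88.6 in RasV12 replicates 1 to 3 and 288, 280 and 300 in sSpi replicates 1 to 3. Every sSpi array lay above every RasV12 array, and the lowest sSpi value was 2.57 times the highest RasV12 value. The means were 96.2 ± 10.9 in RasV12 and 289 ± 10.1 in sSpi (SD, n = 3), so the signal was 3.00 times higher in sSpi. On the log2(signal + 16) scale the difference was -1.45 ± 0.11 (SE), the 25th largest in size of the 8380 and the 14th among those below 0. The residual SD within a genotype was 0.10 on the log2 scale. Of all tested probe sets, whatever their signal level, 81.2% had a larger one. Whether this spread played a part in the choice of the gene is not known, so it is a description too. For AdamTS-B, RasV12 replicate 1 lay between the other arrays of its genotype. Its difference stayed between -1.52 and -1.40 with any 1 array left out.

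**Figure D1:**
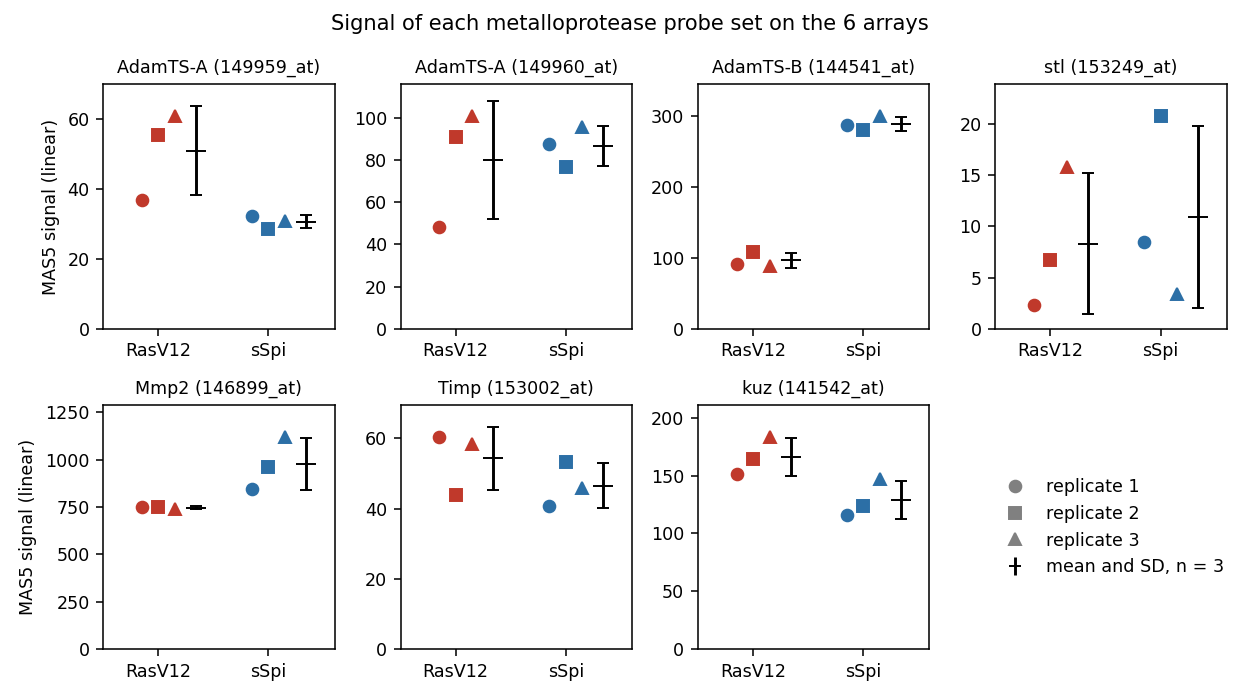
MAS5 signal (linear scale, each panel from 0) of the 7 probe sets on the 3 RasV12 and 3 sSpi arrays; points are arrays, marked by replicate number, and bars are the mean and SD of n = 3. AdamTS-B lies at 88.6 to 109 in RasV12 and 280 to 300 in sSpi, Mmp2 and kuz part with narrower gaps, and the AdamTS-A probe sets differ from each other.

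Of the 5 tested probe sets of the other genes, which stand for 4 genes, 0 passed in limma, against 2.61% of all probe sets tested (1.3% higher and 1.31% lower). The unadjusted limma p was 0.013 for the first AdamTS-A probe set, 0.0087 for Mmp2 and 0.023 for kuz. The share of all tested probe sets with an unadjusted p under 0.05 was not counted here, so these carry no baseline. The arrays of the genotypes did not overlap for 3 of 5, of which 2 were higher and 1 lower in RasV12. Over all tested this share was 21.3% (10.2% higher and 11.1% lower). The median difference of the 5 was 0.16 on the log2 scale, beside -0.0072 over all tested, and the median absolute difference was 0.33, beside 0.14. With 3 arrays against 3, an exact two-sided permutation test of a single gene cannot give a p below 0.1, which each of the 3 reached.

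AdamTS-A was measured by a pair of probe sets that gave different pictures. The first had signals of 36.8, 55.5 and 60.8 in RasV12 and 32.4, 28.6 and 31.0 in sSpi. All RasV12 arrays lay above all sSpi arrays, with replicate 1 only just so. The means were 51.0 ± 12.6 and 30.7 ± 1.88 (SD, n = 3), a log2 difference of 0.50 ± 0.17 (SE) with a 95% interval from 0.13 to 0.88 that did not pass (limma adjusted p = 0.178). The second had signals of 48.2, 91.0 and 101 in RasV12 and 87.7, 76.8 and 95.6 in sSpi. Its groups overlapped, with RasV12 replicate 1 the lowest of all 6 arrays and the other RasV12 arrays among the higher ones. Its log2 difference was -0.14 ± 0.21 (SE, limma adjusted p = 0.803, n = 3), with an interval from -0.61 to 0.33.

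Within each array, the first AdamTS-A probe set set against the second was higher in RasV12, at -0.28, -0.58 and -0.60 on the log2 scale against -1.10, -1.06 and -1.25 in sSpi. These values did not overlap, and they differed by 0.64 between genotypes (exact two-sided permutation p = 0.1, the smallest possible, n = 3). The position of either probe set in the gene, and so the transcripts it reads, was not analysed here.

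RasV12 replicate 1 gave the lowest AdamTS-A value of its genotype in both probe sets. Without it the first probe set passed, at 0.67 ± 0.14 (limma adjusted p = 0.0313), and 4.4% of all probe sets passed in that fit. The second probe set then changed sign, to 0.13 ± 0.13, and did not pass (limma adjusted p = 0.63). That array also differed from the other RasV12 arrays in genes that respond to ecdysone, the moulting steroid. The mean log2 deviation of 13 ecdysone response genes was -0.44 on it, against 0.58 and 0.64 on the other RasV12 arrays and -0.0093, -0.19 and -0.58 on the sSpi arrays. With this list score as a covariate the first probe set differed by 0.30 and the second by -0.44 (limma adjusted p = 0.361 and 0.241). The part of the ecdysone response in the AdamTS-A values was not otherwise tested.

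The probe set of stl gave signals of 2.35, 6.70 and 15.8 in RasV12 and 8.48, 20.8 and 3.44 in sSpi. The groups overlapped across nearly their whole range, and the mean over 6 arrays was 9.60. No difference between the genotypes was detected for this gene (exact two-sided permutation p = 0.7, n = 3).

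Mmp2, the membrane-anchored matrix metalloprotease, had signals of 750, 748 and 737 in RasV12 and 845, 961 and 1119 in sSpi. The RasV12 arrays lay close together and below all sSpi arrays, which spread more widely. The means were 745 ± 7.11 and 975 ± 138 (SD, n = 3), 1.31 times higher in sSpi. The log2 difference of -0.37 ± 0.11 (SE) had an interval from -0.63 to -0.12 and did not pass (limma adjusted p = 0.147, 0.0087 unadjusted). It was below 0 in all 16 other settings tried, between -0.47 and -0.27, with adjusted p from 0.116 to 0.339.

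Timp, the inhibitor of Mmp1 and Mmp2, had signals of 60.4, 44.0 and 58.5 in RasV12 and 40.7, 53.2 and 45.9 in sSpi. The groups overlapped, with 1 RasV12 array below most sSpi arrays. The means were 54.3 ± 8.96 and 46.6 ± 6.29 (SD, n = 3), and the log2 difference of 0.16 ± 0.15 (SE, limma adjusted p = 0.659) had an interval from -0.17 to 0.50.

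The signal of kuz was 151, 164 and 183 in RasV12 and 116, 124 and 147 in sSpi. All RasV12 arrays were above all sSpi arrays, though the nearest pair, 151 and 147, almost met. The means were 166 ± 16.3 and 129 ± 16.1 (SD, n = 3), 1.29 times higher in RasV12. The log2 difference of 0.33 ± 0.12 (SE), with an interval from 0.06 to 0.61, did not pass (limma adjusted p = 0.229, 0.023 unadjusted). It was above 0 in all 16 other settings, between 0.26 and 0.42.

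**Figure D2:**
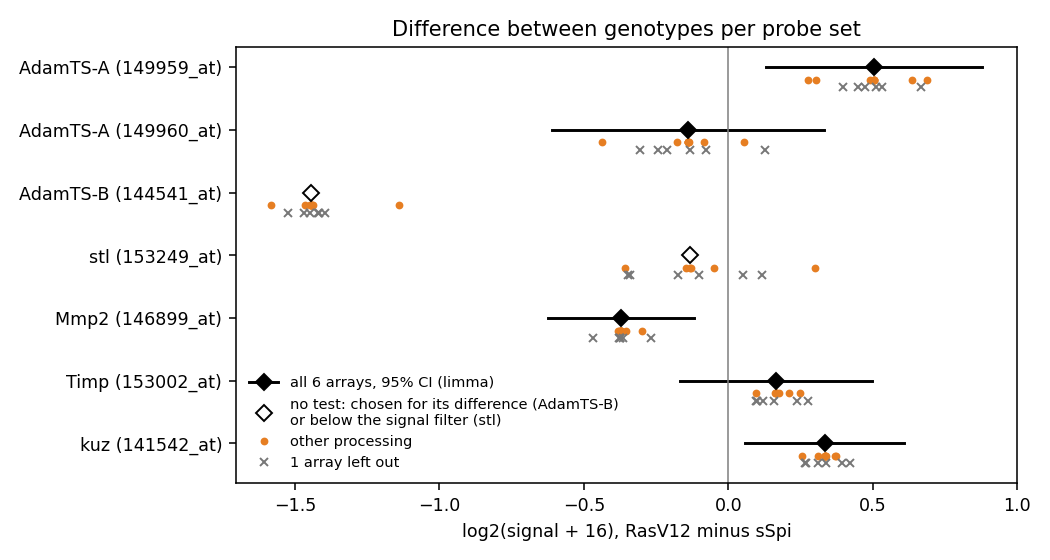
Log2(signal + 16) differences, RasV12 minus sSpi, per probe set. Filled diamonds with lines are limma estimates with 95% intervals, and open diamonds carry no test. Crosses leave out 1 array. Orange dots are the other settings, which include leaving out both RasV12 replicate 1 and sSpi replicate 2. AdamTS-B keeps between -1.58 and -1.14 in every setting shown, Mmp2 stays below 0 and kuz above 0, and the second AdamTS-A probe set and stl fall on both sides of 0.

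The genes whose profile over the 6 arrays was nearest to that of AdamTS-B were found by the root mean square difference of log2(signal + 16) values, each centred on its own mean. As both genotypes enter this measure, it ranks genes that share the size of the gap and the small differences between arrays, and it carries no test. The nearest was CG13606, at a distance of 0.10, with a mean signal of 56.5 ± 9.46 in RasV12 and 168 ± 12.2 in sSpi (SD, n = 3). Next came Tmtc2, which encodes a membrane protein with tetratricopeptide repeats, at 0.12, and PVRAP, an adaptor of the PDGF and VEGF receptor homologue Pvr, at 0.13. CG7900 and the cytochrome P450 gene Cyp4p2 followed at 0.14 and 0.17. As these genes were chosen on the same array values, some likeness in the order of arrays is built in. Like AdamTS-B, CG13606, Tmtc2 and PVRAP had their highest RasV12 value on replicate 2 and their highest sSpi value on replicate 3. The highest sSpi value of CG7900 was on replicate 1, and so was the highest RasV12 value of Cyp4p2.

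**Figure D3:**
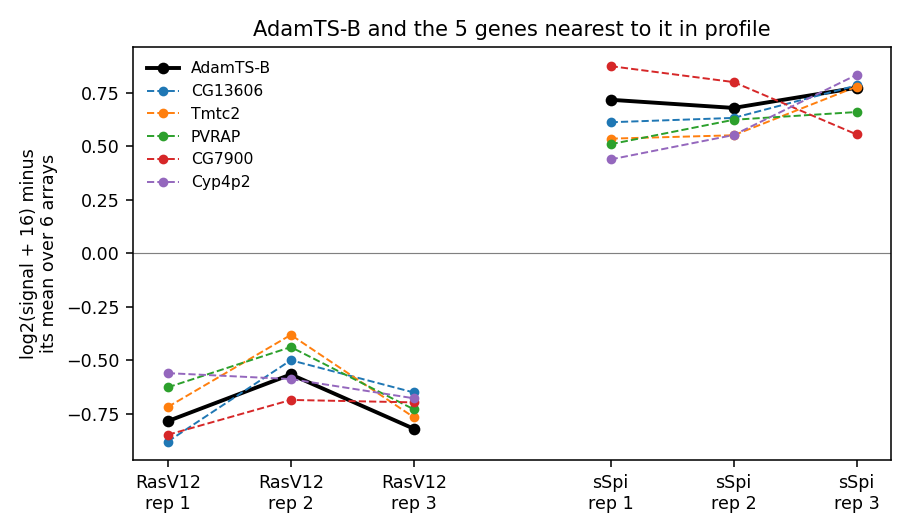
Log2(signal + 16) of AdamTS-B (black) and the 5 genes nearest to it in profile, each centred on its mean over the 6 arrays, by array. All 6 genes lie below their mean on the RasV12 arrays and above it on the sSpi arrays; they were chosen for this likeness.

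Genes that overlap or lie next to these loci in the gene table were read for the same contrast. The table gave 18 such genes, of which 14 had a single-gene probe set and 8 were tested, with 12 probe sets. In limma 0 of the 12 passed, against 2.61% of all tested. The unadjusted p was below 0.05 for CG33080, Snx27, CG12814 and B4, each in 1 probe set except B4 with both. The share of all tested probe sets below that value was not counted. CG33080, which overlaps AdamTS-B in the table, had signals of 23.9, 41.4 and 33.2 in RasV12 and 54.7, 56.1 and 64.7 in sSpi. These did not overlap and lay in the direction of AdamTS-B, at -0.62 ± 0.16 on the log2 scale, and did not pass (SE, limma adjusted p = 0.0909, n = 3). Its other probe sets, 2 of 3, lay below the signal limit.

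Next to AdamTS-B, the sorting nexin gene Snx27 had 3 probe sets with differences of -0.52, -0.24 and -0.07, of which none passed, and the last of these turned above 0 in 3 other settings. The strand of the genes is not in the table, and whether probe sets share sequence was not analysed here. Beside kuz, B4 had log2 differences of 0.63 ± 0.17 and 0.39 ± 0.16 (limma adjusted p = 0.0993 and 0.286, n = 3), both above 0 like kuz, while ics, on the other side, differed by -0.03 ± 0.09. Timp overlaps the synapsin gene Syn, whose signals of 10.1 to 15.1 in RasV12 and 11.4 to 16.4 in sSpi lay below the limit. Pof, which overlaps Mmp1, differed by 0.05 ± 0.20 (limma adjusted p = 0.925) and changed sign in 4 other settings.

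The next 4 lists of related genes were chosen with earlier results of these data known. Among other metalloproteases, 1 of 8 tested genes fell in RasV12 and none rose, beside 1.31% and 1.3% of all tested. It was Meltrin, an ADAM protease gene, with signals of 60.9, 103 and 115 in RasV12 and 175, 190 and 174 in sSpi. The groups did not overlap, with RasV12 replicate 1 the lowest array. The gap was -0.88 ± 0.18 on the log2 scale (SE, limma adjusted p = 0.0375, n = 3). Meltrin no longer passed in 7 of 16 alternatives, namely with RasV12 replicate 2 or any 1 sSpi array left out, with RasV12 replicate 1 and sSpi replicate 2 both left out, with no signal filter or with no trend, and its adjusted p reached 0.162. A second Meltrin probe set lay below the limit, at 6.53 ± 1.64 and 7.34 ± 1.44. Tace, the ADAM protease known for shedding tumour necrosis factor in mammals, differed by -0.04 (limma adjusted p = 0.895), and the tolloid-type proteases tok and tld by -0.06 and 0.16. Nep2 differed by 0.63 with overlapping groups and did not pass (limma adjusted p = 0.205). The list median was 0.05, with 4 genes above 0 and 4 below. Groups did not overlap for 2 of the 8, beside 21.3% of all tested.

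Of 15 basement membrane and matrix genes tested, with a list median of 0.04, none fell and 1 rose, Ppn (1.31% and 1.3% of all tested). Papilin, its product, resembles the non-catalytic part of ADAMTS proteins. Ppn was higher by 0.59 ± 0.13 on the log2 scale (SE, limma adjusted p = 0.0498, n = 3). It no longer passed in 13 of 16 alternatives, which include leaving out any 1 array. A second Ppn probe set lay below the limit, at 27.3 ± 3.97 in RasV12 and 18.2 ± 2.65 in sSpi (SD, n = 3). Its groups did not overlap. Reck, the homologue of a vertebrate membrane-anchored inhibitor of matrix metalloproteases, differed by 0.60 with overlapping groups (limma adjusted p = 0.29). Reck was picked with its values in view. The collagen genes Col4a1 and vkg differed by -0.15 and 0.05, and neither passed. Tig and SPARC differed by -0.62 and -0.27 and did not pass (limma adjusted p = 0.221 and 0.208). Of the 15 genes, 8 lay above 0 and 7 below. Groups did not overlap for 3 of 15, beside 21.3% of all tested.

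Around kuz, 1 of 7 tested substrates, tetraspanins and Notch cleavage cofactors rose and none fell, beside 1.3% and 1.31% of all tested. It was fra, the netrin receptor gene, with a mean signal of 467 ± 63.0 against 287 ± 34.6 (SD, n = 3) and a gap of 0.67 ± 0.13 on the log2 scale (SE, limma adjusted p = 0.0278). It no longer passed in 7 of 16 alternatives, with RasV12 replicate 2 or 3 or any 1 sSpi array left out, with no signal filter or with the replicate block, and the adjusted p of fra reached 0.13. The Notch ligand gene Delta differed by 0.19 and the gamma-secretase gene Psn by 0.06, and neither passed. The list median was 0.03, and groups did not overlap for 2 of 7, beside 21.3% of all tested. Notch itself had no probe set named for it alone.

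Of 10 tested genes of the JNK pathway, its AP-1 factors and disc stress, 1 rose and 2 fell, beside 1.3% and 1.31% of all tested. The list median was -0.20, and groups did not overlap for 4 of 10, beside 21.3% of all tested. JNK signalling is known to raise Mmp1 in discs, and the list also holds puc, which inhibits JNK, and the stress output Ilp8. Those that fell were Ilp8, a relaxin-like peptide, and egr, the fly tumour necrosis factor, at -1.44 ± 0.19 and -0.53 ± 0.10 (SE, limma adjusted p = 0.00508 and 0.0239, n = 3). In 7 of 16 alternatives egr no longer passed, with RasV12 replicate 2 or 3 or any 1 sSpi array left out, with RasV12 replicate 1 and sSpi replicate 2 both left out, or with the replicate block, and its limma adjusted p reached 0.106 at most over the 16. Traf4, an adaptor between the tumour necrosis factor receptor and JNK, rose from 202 ± 62.5 to 378 ± 20.2 (SD, n = 3), by 0.89 ± 0.17 on the log2 scale (SE, limma adjusted p = 0.029). Its second probe set also passed, at 1.10 ± 0.15 (limma adjusted p = 0.00531). The first no longer passed in 6 of 16 alternatives, with RasV12 replicate 2 or 3 or sSpi replicate 1 or 2 left out, with RasV12 replicate 1 and sSpi replicate 2 both left out, or with no signal filter. The AP-1 genes Jra and kay differed by -0.38 and -0.17 and did not pass (limma adjusted p = 0.126 and 0.558).

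**Figure D4:**
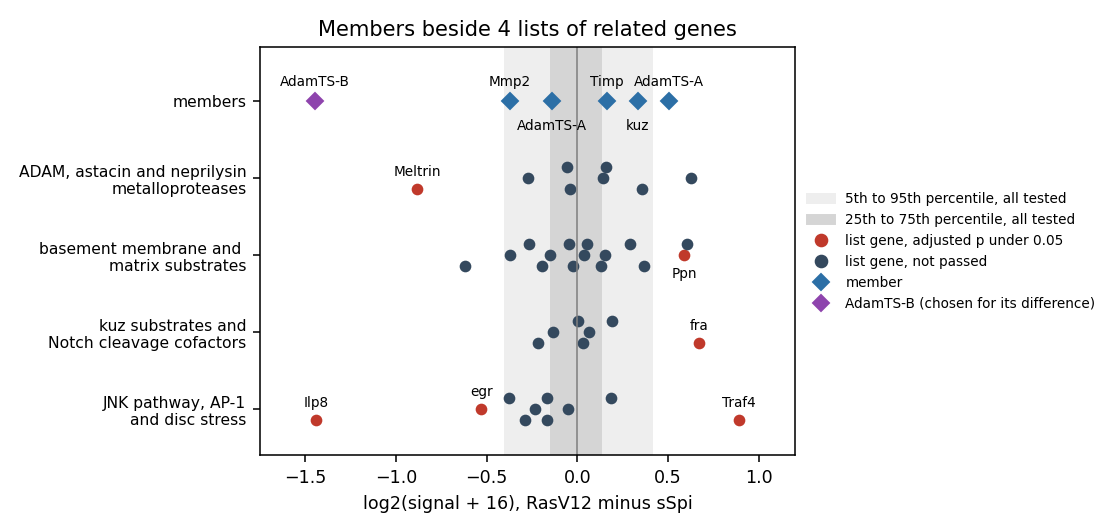
Log2(signal + 16) differences, RasV12 minus sSpi, of the members above the signal limit (diamonds) and of 4 lists of related genes (circles). Circles stand for 1 probe set per gene and are red where the limma adjusted p was under 0.05. Shaded bands hold the middle of all 8380 tested probe sets, the wider one from -0.40 to 0.41. AdamTS-B, Meltrin, Ilp8, egr, Ppn, fra and Traf4 lie outside that band, as do the first AdamTS-A probe set and 3 list genes that did not pass.

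Markers of the cells that a disc sample could hold were read beside these values. Whether each gene is restricted to its listed cell type in discs was not tested. All 9 eye disc markers and all 5 measured antennal disc markers, of 6 listed, were above the signal limit. Of the 9 eye disc markers 1 rose and 2 fell, beside 1.3% and 1.31% of all tested. They were ato, at 1.10 on the log2 scale, and ro and ey, at -0.61 and -0.48 (limma adjusted p = 0.00123, 0.0268 and 0.0483, n = 3). None of the antennal markers passed in limma. The lowest adjusted p were 0.106 for dan and 0.229 for ss, at 0.46 and 0.40 on the log2 scale. The summed signal of 7 of 8 genes listed as glial was 1202 to 1347 in RasV12 and 1695 to 1804 in sSpi. It did not overlap and was lower in RasV12 like AdamTS-B, Mmp2 and Meltrin. Most of this sum was Gli, which fell (limma adjusted p = 0.00511), and the defining glial gene repo overlapped between the genotypes, at 88.7 to 115 and 101 to 143. Of the 6 glial genes tested, 3 lay above 0 and 3 below. The genes nrv2 and bdl were higher on every RasV12 array, at 0.58 and 0.35 on the log2 scale, and did not pass (limma adjusted p = 0.181 and 0.273). Like Gli, moody was lower on every RasV12 array, at -0.60, but did not pass (limma adjusted p = 0.134). The sum of 4 muscle precursor genes, of 7 listed, was higher in RasV12, at 96.9 to 107 against 57.5 to 84.2, with twi and Him at mean signals under 10. Its gap came from htl, at 0.69 on the log2 scale, which did not pass (limma adjusted p = 0.0552), while zfh1 overlapped, at 0.10. The first AdamTS-A probe set, kuz and fra were higher in RasV12 as well. The sum of 9 of 10 hemocyte genes overlapped, at 330 to 503 in RasV12 and 293 to 452 in sSpi, with gcm at a mean under 10. Within it NimC1 was lower on every RasV12 array, at 4.64 ± 1.76 against 21.5 ± 3.99 (SD, n = 3). In contrast gcm was higher on every RasV12 array, at 10.4 ± 0.88 against 3.72 ± 2.1. Both lay below the signal limit, and the other hemocyte genes overlapped. For 6 of 7 genes listed as tracheal the sum overlapped as well, at 4115 to 5413 and 3983 to 4405. The mean signal of btl was 6.26, and those of the others lay at 400 to 1357. Among them obst-A, verm and Gasp were higher on every RasV12 array, at 0.34, 0.32 and 0.53 on the log2 scale. The gene uif was lower on every RasV12 array, at -0.28. None of these passed (limma adjusted p = 0.226, 0.193, 0.191 and 0.221). The sum of 3 of 6 fat body genes lay at 70.5 to 85.1 and 74.5 to 238, with Fbp2 under 10, and also overlapped. Over all tested probe sets, 21.3% were higher or lower on every RasV12 array (10.2% higher and 11.1% lower). Among tested markers this held for 3 of 9 eye disc, 1 of 5 antennal, 4 of 6 glial and 4 of 5 tracheal genes. It held for 1 of 2 muscle precursor, 0 of 5 hemocyte and 0 of 2 fat body genes. The part of any of these cell types in the metalloprotease values was not tested.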

How the data were processed

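RNA of 6 disc samples, 3 per genotype, was measured on single-colour Affymetrix arrays. The deposited values are linear intensities, 1 for each probe set, made with MAS5 per the submitters' processing notes. Its version, settings and genome build are not given in the sources used here. Means after trimming 2% from each end were 100 on every array, so the authors' intensities share a common scale. All 6 columns were matched by sample name and 0 were left out.

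Gene names came from the platform annotation, brought up to date by gene identifier with RefSeq's table for Release 6 plus ISO1 MT, which matched 12394 of 12443 single-gene probe sets. Of 13966 probe sets without controls, 327 named several genes and 1196 none.

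Signals were taken as log2(signal + 16), and probe sets in the upper 60% by mean signal were fitted in limma 3.58.1 (R 4.3.3) by lmFit and by eBayes with a trend of variance on the mean signal. Tests were two-sided and adjusted over all 8380 by Benjamini-Hochberg. Detection calls were not used here. The number of arrays limits the precision. The fit was tested on simulated data. Named were every member probe set, the 5 nearest profiles, the neighbouring genes and, per list, up to 4 genes that passed. Some list genes that did not pass, and some markers, were named outside this rule. List genes were represented by their brightest probe set. The members, lists and tests were chosen with earlier results of these data known. Titles number the replicates of both genotypes alike, but arrays sharing a number did not deviate together (correlations of -0.11, -0.04 and -0.14), and they were not treated as pairs. Figures were drawn with matplotlib 3.10.9.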

Additional observations from a re-analysis of the deposited data

How the results depend on the processing

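The 16 alternatives were pseudocounts of 1 and 64, testing every probe set or the upper 40%, scaling by quantiles or by the median, no trend, the replicate block, the ecdysone covariate, and arrays left out. The 219 calls over all probe sets became 138 without the filter, where more dim probe sets were tested, and 380 with the ecdysone covariate (the cause was not tested). With 1 array left out they ranged from 86 to 369. With the replicate block 159 passed, and no tested probe set of the members other than AdamTS-B changed its call. AdamTS-B differed by -1.58 with a pseudocount of 1 and -1.14 with 64, by construction of the scale, and by -1.52 to -1.40 with 1 array left out. AdamTS-B carries no test and is left out of the member counts. The first AdamTS-A probe set alone passed in any setting, without RasV12 replicate 1 (0 to 1 passed with 1 array left out). It ranged from 0.40 to 0.67 with 1 array left out and from 0.28 to 0.69 over all settings. The second ranged from -0.30 to 0.13 with 1 array left out and from -0.44 to 0.13 over all settings. It reversed to 0.13 without RasV12 replicate 1 and to 0.06 without that array and sSpi replicate 2. The stl value moved to 0.30 without those 2 arrays and ranged from -0.35 to 0.12 with 1 left out. Mmp2 (-0.47 to -0.27), Timp (0.10 to 0.27) and kuz (0.26 to 0.42) kept their sign and missed the threshold in each setting. Of the neighbours, 1 Snx27 probe set reversed to 0.016 with the covariate, 0.051 without RasV12 replicate 3 and 0.024 without sSpi replicate 3. With 1 array left out it ranged from -0.17 to 0.051. Pof reversed to -0.16 without RasV12 replicate 1 and sSpi replicate 2, and to -0.06 without RasV12 replicate 1 alone. It also reversed to -0.04 without sSpi replicate 2 and to -0.04 without sSpi replicate 3. With 1 array left out Pof ranged from -0.06 to 0.24. The cause of the reversals was not tested. The first AdamTS-A probe set and that of Timp fell outside the upper 40%. For stl the groups overlapped at a low signal, and no difference was detected.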
